A study of Mus musculus with 19 samples.

Results

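Aminoacyl-tRNA synthetases, the enzymes that join each amino acid to its transfer RNA before translation, were followed as mRNA in mouse embryonic stem cells and in blastoids. Members were chosen by symbol alone: the letter of an amino acid followed by ars, with an added 2 for the mitochondrial enzymes, together with Farsa, Farsb and Eprs. The rule found 37 of the 54352 symbols in the count tables, 20 for cytosolic and 17 for mitochondrial enzymes. The rule uses symbols and no measured value, although the family was taken up with earlier results of these data known, and all 37 matched 1 gene of the GENCODE M21 annotation.

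The 19 libraries formed 7 groups, all from TT2, a mouse embryonic stem cell line grown on inactivated mouse embryonic fibroblasts (feeder cells), whose RNA can enter the 2D libraries. In 2D culture, 2 libraries came from cells given 20 nM pladienolide B (PlaB), a splicing inhibitor that targets the spliceosome's SF3B component, for 6 h, and 2 came from control cells with no PlaB. Both were taken 54 h after seeding. Blastoids, aggregates of stem cells that resemble the blastocyst, gave 3 libraries on each of days 1 to 5 in 3D microwells. The labels list all blastoid libraries as PlaB-treated for 6 h, so none of these libraries is an untreated blastoid and the days share that label. Whether that treatment came before or during blastoid culture is not stated, and the protocol that gives the dose is worded for stem cells only. Whether libraries of a group came from separate cultures is not stated in the labels. The p-values below therefore measure the spread between these libraries, which may be technical.

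Most mammalian synthetase genes serve either the cytosol or the mitochondrion, each with its own transfer RNAs. Gars (glycine) and Kars (lysine) encode both the cytosolic and the mitochondrial enzyme, Eprs joins glutamate and proline in a single protein, and Farsa and Farsb encode the subunits of the cytosolic phenylalanine enzyme. No mitochondrial glutamine enzyme exists in mammals, where an amidotransferase built from Qrsl1, Gatb and Gatc finishes that charging. Of the cytosolic members, 8 (Dars, Eprs, Iars, Kars, Lars, Mars, Qars and Rars) belong to the multi-synthetase complex, which is held together by the scaffold proteins Aimp1, Aimp2 and Eef1e1. The transcription factor ATF4 is known to raise many cytosolic synthetase genes when amino acids run short, through C/EBP-ATF response elements in their promoters.

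Promoters were taken from RefSeq (build GRCm38.p6, 250 bases before to 50 after the start) for the 13 cytosolic and 14 mitochondrial members found there. The C/EBP-ATF response element TGATGNAAN, searched on both strands, stood in 5 of 13 cytosolic promoters (38.5%) and in 0 of 14 mitochondrial ones, against 4.11% of 17491 protein-coding genes. Those 5 were Aars, Gars, Iars, Tars and Yars. The exact form TGATGCAAT stood in Aars and Iars, which is 15.4% of the cytosolic promoters, against 0.206% of protein-coding genes. The E-box CACGTG was found for 4 of 13 cytosolic genes (Aars, Farsb, Iars and Tars) and for 1 of 14 mitochondrial genes (Ears2), against 8.91%. The core of the NRF1 element, CGCATGCG, was found for 0 of 13 cytosolic genes and for 2 of 14 mitochondrial genes (Vars2 and Wars2), against 2.77%. No site of these motifs overlapped a site of another in the members' promoters, and a match describes letters only. The 4 element-bearing promoters whose genes had the smallest adjusted p after PlaB are shown because they carry the letters through which ATF4 can bind, with TGATGNAAN or its reverse complement in capitals.
Yars promoter, chr4:129189653-129189952, plus strand: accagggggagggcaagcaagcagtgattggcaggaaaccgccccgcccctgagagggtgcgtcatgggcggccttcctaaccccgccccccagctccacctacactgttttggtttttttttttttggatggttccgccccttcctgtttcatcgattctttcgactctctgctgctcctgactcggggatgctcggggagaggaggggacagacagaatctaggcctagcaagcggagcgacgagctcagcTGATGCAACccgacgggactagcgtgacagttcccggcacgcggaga
Aars promoter, chr8:111033592-111033891, plus strand: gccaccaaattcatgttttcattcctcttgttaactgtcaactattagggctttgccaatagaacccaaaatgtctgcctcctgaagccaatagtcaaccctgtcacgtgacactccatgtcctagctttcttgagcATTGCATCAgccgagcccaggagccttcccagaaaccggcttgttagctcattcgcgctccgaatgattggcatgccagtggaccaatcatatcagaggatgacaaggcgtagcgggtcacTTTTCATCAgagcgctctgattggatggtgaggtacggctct
Gars promoter, chr6:55037751-55038050, plus strand: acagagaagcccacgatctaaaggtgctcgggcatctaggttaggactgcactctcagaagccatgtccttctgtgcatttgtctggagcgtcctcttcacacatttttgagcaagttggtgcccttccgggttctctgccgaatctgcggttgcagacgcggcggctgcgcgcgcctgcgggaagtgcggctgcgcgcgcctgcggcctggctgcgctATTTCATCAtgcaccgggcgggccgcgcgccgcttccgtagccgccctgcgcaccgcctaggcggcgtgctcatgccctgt
Iars promoter, chr13:49681880-49682179, plus strand: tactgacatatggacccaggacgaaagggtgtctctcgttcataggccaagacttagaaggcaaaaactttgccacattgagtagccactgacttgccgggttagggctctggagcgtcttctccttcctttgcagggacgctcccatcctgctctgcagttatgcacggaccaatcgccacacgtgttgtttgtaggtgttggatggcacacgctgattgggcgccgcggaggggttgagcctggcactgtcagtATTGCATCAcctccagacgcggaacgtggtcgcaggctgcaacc
The element began 4 bases after the start in Yars, 7 bases after it in Iars and 31 bases before it in Gars. Aars held 2 elements, beginning 113 bases before and 9 bases after the start.

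Libraries in 2D held 2515381 to 4118725 counts and blastoid libraries 3684787 to 7607021. Cytosolic members together had 6344 to 27021 counts a library and mitochondrial members 603 to 3446. Library 3 of blastoid day 3 stood apart, with 13.5% of its counts on mitochondrially encoded genes, against 5.50% and 4.71% in the other libraries of that day. Stem cell markers were present in both 2D groups, as Dppa5a at 14400 CPM (counts scaled to a common library size by TMM) after PlaB and 20500 CPM in controls. Of the 8 stem cell markers, 3 (Dppa5a, Esrrb and Zfp42) fell after PlaB and 0 rose (median log2 fold change -0.09), with summed levels of 14998 and 15273 CPM in PlaB libraries, against 22375 and 20360 CPM in controls. Feeder markers rose for 9 of 11 tested after PlaB, with summed levels of 3875 and 5223 CPM in PlaB libraries, against 2059 and 2539 CPM in controls. In blastoids they summed to 199 to 902 CPM. Tagln stood at 0 there, but at only 0.846 CPM after PlaB and 1.18 CPM in controls. Dcn stood at 308 CPM on day 1 and 372 CPM on day 2, against 444 CPM after PlaB and 235 CPM in controls. Of 11 feeder markers tested, 10 were lower on day 1 than after PlaB. Trophectoderm markers summed to 1066 to 2056 CPM on day 5, against 306 to 428 CPM on day 1. In 2D libraries they summed to 172 and 182 CPM after PlaB and to 76 and 106 CPM in controls. Cdx2 stood at 0 in both 2D groups and was low in blastoids too, at 0.736 CPM on day 1 and 0.0692 CPM on day 5. The highest of these markers on day 5 were Krt18 (877 CPM), Krt8 (338 CPM) and Plac1 (179 CPM). Eomes had a lower mean on day 5 (2.6 CPM) than on day 1 (4.34 CPM). Fewer cells of a type and less RNA per cell cannot be told apart in such bulk libraries.

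Per length of transcript, the median cytosolic synthetase mRNA stood well above the median mitochondrial one in every group. The median cytosolic member stood at 40.5 CPM per kb in PlaB-treated cells, 26.8 in controls, and 42.9, 44.0, 34.8, 38 and 39.5 on blastoid days 1 to 5. The median mitochondrial member stood at 3.47 CPM per kb in PlaB-treated cells, 2.89 in controls, and 5.37, 6.36, 3.06, 5.14 and 4.47 on days 1 to 5. Rars2, the mitochondrial arginine enzyme, was the highest mitochondrial member in all 7 groups, at 21.6 CPM per kb after PlaB, 49.8 in controls and 42.4 to 61.9 in blastoids. Among cytosolic members, Nars (asparagine) led after PlaB and on day 5, Dars (aspartate) in controls and on day 3, and Rars (arginine) on days 1, 2 and 4. Vars (valine) was the lowest cytosolic member in every group but day 1, where Aars (alanine) was lower at 12.0 CPM per kb. These levels are descriptions, with no test between genes.

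**Figure D1:**
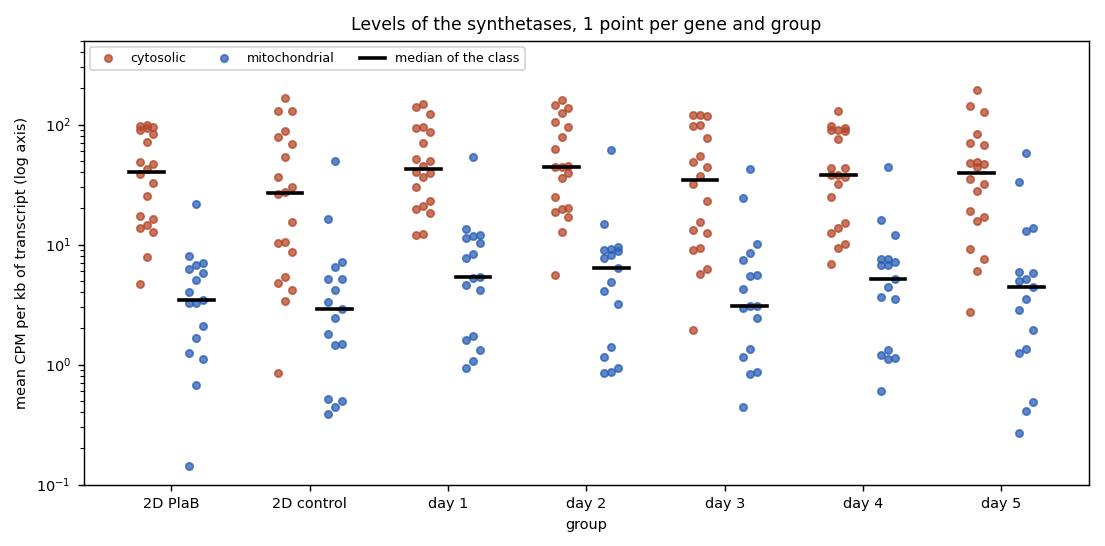
Each point is 1 synthetase gene, placed by its mean CPM per kb of transcript on a log axis, in each of the 7 groups, with cytosolic genes in red, mitochondrial genes in blue and a bar at each class's median. The red medians lie between 26.8 and 44.0 CPM per kb and the blue medians between 2.89 and 6.36, and the highest blue point is Rars2 throughout.

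Added up, cytosolic members took 2741 and 2831 CPM in the PlaB libraries, against 2448 and 2678 CPM in controls, and mitochondrial members 261 and 269 CPM, against 305 and 310 CPM. Both PlaB libraries thus gave 8.68% of their synthetase counts to mitochondrial members, and the controls 11.2% and 10.2%. In blastoids the mitochondrial share was 11.3% to 11.6% on day 1, 9.75% to 11.9% on day 2, 10.4% to 15.7% on day 3, 11.5% to 12.3% on day 4 and 13% to 15.2% on day 5. The 15.7% belongs to library 3 of day 3, and the other day 3 libraries gave 10.4% and 11.0%. Without Lars2, the mitochondrial leucine enzyme, left out after its values were seen, the share was 10.4% to 11.8% on day 5, against 10.7% to 11.6% on day 4 and 10.5% to 11.3% on day 1. Sums over chosen members were not tested.

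PlaB-treated stem cells were compared with controls to see what a short splicing block changed. Of the 20 cytosolic members, all tested, 12 rose and 3 fell, with a median log2 fold change of 0.52. Of the 15 mitochondrial members tested, 4 rose and 3 fell, with a median of 0.07. The remaining mitochondrial members, Aars2 (alanine) and Vars2 (valine), did not pass the filter on low counts. Across all 11183 genes tested, 51.7% passed the threshold (an adjusted p under 0.05), 25.9% as higher and 25.8% as lower, with a median of 0.00. The 2D groups did not overlap for 18 of 20 cytosolic and 12 of 15 mitochondrial members, against 76.3% of all genes (37.7% higher and 38.6% lower). Outside the multi-synthetase complex 8 of 12 cytosolic members rose and 1 fell (median 0.65), and within it 4 of 8 rose and 2 fell (median 0.25).

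The serine enzymes showed large differences in both compartments. Sars, cytosolic, had 158 and 145 CPM in PlaB libraries, against 34.4 and 41.3 CPM in controls. Sars2, mitochondrial, had 14.7 and 7.11 CPM in PlaB libraries, against 0.51 and 1.35 CPM in controls. Neither gene's groups overlapped, and Sars2 rested on 52 counts in PlaB libraries and 7 in controls. Sars rose 3.99-fold (log2 fold change 2.00 ± 0.17 SE, adjusted p = 5.79e-12, edgeR quasi-likelihood test). Sars2 rose 11.3-fold (3.50 ± 0.66 SE, adjusted p = 3.38e-05, edgeR). The Sars2 fold was 7.42 without PlaB library 1 and 19.2 without control library 2, with the call kept in both cases.

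Kars, which serves both compartments with lysine, had 153 and 162 CPM in PlaB libraries, against 60.1 and 58.8 CPM in controls. Mars, the cytosolic methionine enzyme, had 48.4 and 47.8 CPM in PlaB libraries, against 11.2 and 20.8 CPM in controls. The groups did not overlap for either gene. Kars rose by 1.40 ± 0.16 on the log2 scale (adjusted p = 2.96e-09) and Mars by 1.59 ± 0.26 (adjusted p = 4.03e-06), both in edgeR. Mars (chr10:127296221-127311786) overlaps Ddit3 (chr10:127290774-127296288) on the opposite strand, only at the ends of the genes. The strand setting of the counting is not given, so reads in that overlap cannot be assigned. Ddit3, a stress-induced transcription factor, rose too, to 37.1 ± 5.55 CPM after PlaB, against 14.6 ± 0.774 CPM in controls (SD, n = 2 each; log2 fold change 1.34 ± 0.27, adjusted p = 6.84e-05).

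Vars and Farsa, the catalytic subunit of the phenylalanine enzyme, were among the low cytosolic members. Vars had 20.7 and 18.2 CPM in PlaB libraries, against 3.82 and 3.24 CPM in controls. Farsa had 22.9 and 27.3 CPM in PlaB libraries, against 4.84 and 7.56 CPM in controls. Every PlaB library lay above every control library for both. Vars rose by 2.44 ± 0.41 (adjusted p = 5.19e-06) and Farsa by 2.01 ± 0.35 (adjusted p = 9e-06) on the log2 scale in edgeR. Farsb, which encodes the other subunit, overlapped between the groups, at 159 and 181 CPM in PlaB libraries and 160 and 161 CPM in controls (log2 fold change 0.08 ± 0.14, adjusted p = 0.651). The difference between the subunit genes was not tested. Wars (tryptophan) rose by 1.60 ± 0.28 (adjusted p = 1.07e-05) and Yars (tyrosine) by 1.00 ± 0.22 (adjusted p = 0.000307).

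Dars, the aspartate enzyme of the complex, was lower. It had 208 and 212 CPM in PlaB libraries, against 348 and 375 CPM in controls. All values after PlaB lay below the controls, and Dars fell by 0.78 ± 0.13 on the log2 scale (adjusted p = 6.3e-06, edgeR). Rars fell by 0.55 ± 0.14 (adjusted p = 0.00117) and Nars by 0.40 ± 0.13 (adjusted p = 0.0136). Eprs had 490 and 439 CPM in PlaB libraries, against 403 and 462 CPM in controls, and the groups overlapped (log2 fold change 0.10 ± 0.13, adjusted p = 0.537). Gars had 231 and 215 CPM in PlaB libraries, against 151 and 175 CPM in controls, without overlap, and rose by 0.45 ± 0.14 (adjusted p = 0.00701). That call ended without PlaB library 1 (adjusted p = 0.0505) and without control library 1 (adjusted p = 0.156). The other calls among cytosolic members were Qars, Aars, Hars and Iars, all higher by 1.31- to 1.67-fold, and Cars, Lars and Tars did not pass. Nars lost its call without PlaB library 1 (adjusted p = 0.245), Qars without control library 2 (adjusted p = 0.0569), and Hars without PlaB library 2 (adjusted p = 0.0677) or control library 1 (adjusted p = 0.136). Without control library 1, 10 members rose in all, against 16 with it.

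**Figure D2:**
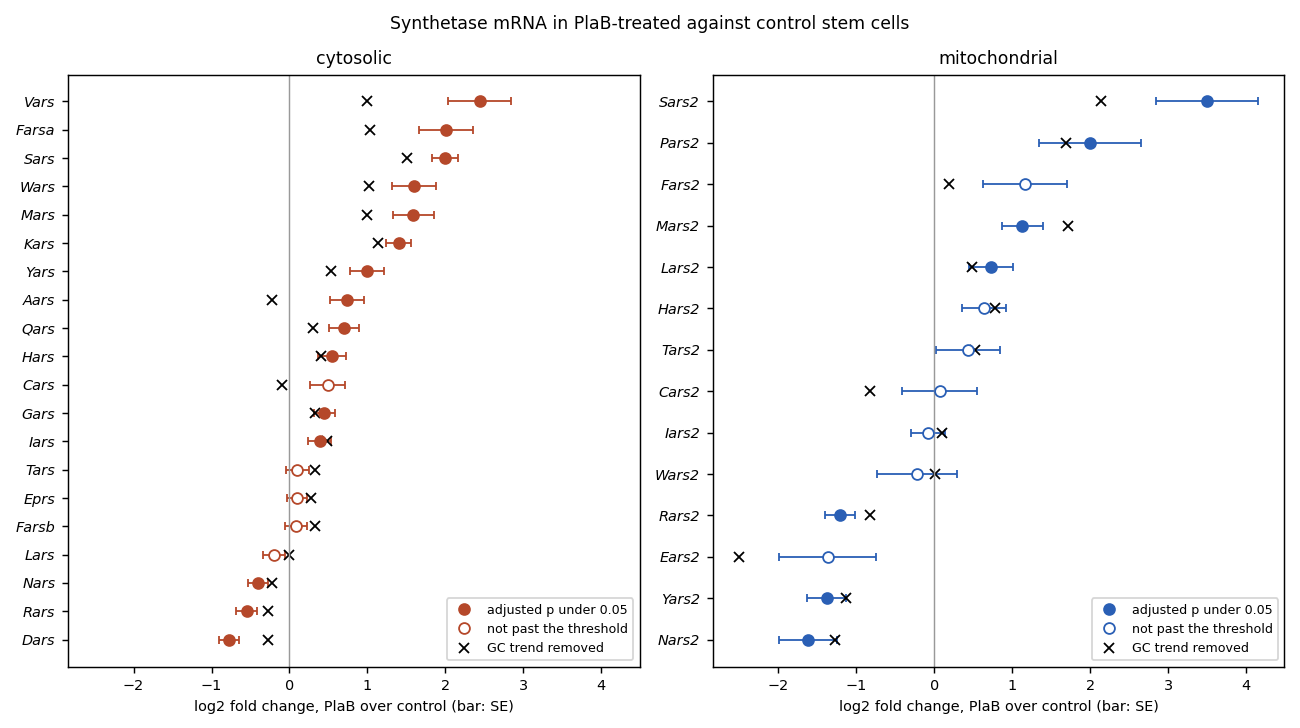
Log2 fold changes of PlaB over control with standard errors, cytosolic members in the left panel and mitochondrial members in the right, filled where the adjusted p was under 0.05, with crosses for values after the trend on GC content was removed. Cytosolic values run from -0.78 (Dars) to 2.44 (Vars), and mitochondrial values from -1.62 (Nars2) to 3.50 (Sars2).

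The mitochondrial enzymes for arginine, tyrosine and asparagine fell. Rars2 had 44.5 and 36.3 CPM in PlaB libraries, against 87.9 and 98.2 CPM in controls. Yars2 had 18.1 and 17.0 CPM, against 47.7 and 43.4 CPM in controls. Nars2 had 5.18 and 7.51 CPM, against 20.6 and 18.6 CPM in controls. Each PlaB value was below both control values. The log2 fold changes were -1.21 ± 0.19 for Rars2 (adjusted p = 1.77e-06), -1.38 ± 0.25 for Yars2 (adjusted p = 1.57e-05) and -1.62 ± 0.37 for Nars2 (adjusted p = 0.000362) in edgeR. For tyrosine the cytosolic gene Yars rose and Yars2 fell, a difference of 2.38 on the log2 scale that was not tested. In 15 pairs of a cytosolic and a mitochondrial gene for the same amino acid, both tested, the cytosolic fold change was the higher in 9. Farsa and Farsb were each paired with Fars2 in this count, and Eprs with Ears2 only.

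Pars2, the mitochondrial proline enzyme, had 6.91 and 5.93 CPM in PlaB libraries, against 2.04 and 1.08 CPM in controls, from 31 and 12 counts. It rose by 2.00 ± 0.65 on the log2 scale (adjusted p = 0.0104, edgeR). The call was lost in DESeq2 (adjusted p = 0.0611), without PlaB library 1 (adjusted p = 0.0821), without control library 1 (adjusted p = 0.0548) and without control library 2 (adjusted p = 0.158). Mars2, the mitochondrial methionine enzyme, had 34.1 and 39.9 CPM in PlaB libraries, against 17.8 and 15.9 CPM in controls, without overlap. It rose by 1.13 ± 0.26 (adjusted p = 0.000409). Mars2 has 0 introns and Pars2 has 1 in the annotation, the fewest among the members, and both were singled out for this after their values were seen. Over the 35 members tested, the fold change and the number of introns had a Spearman correlation of -0.06, and over 11113 genes of -0.13. Lars2 (leucine) rose by 0.73 ± 0.28 (adjusted p = 0.0277), but did not pass when any 1 of the 4 libraries was left out (adjusted p 0.0538 to 0.256).

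GC content moved with these differences. Genes rich in GC (at least 53.7%) minus genes poor in it (at most 44.1%) stood, relative to the mean of all libraries, at 0.21 and 0.07 on the log2 scale in PlaB libraries and at -0.97 and -0.82 in controls. Over the 35 members tested, fold change and GC content had a Spearman correlation of 0.67, and over 11113 genes of 0.44. With each library's trend on GC content removed, 10 cytosolic members rose and 0 fell, and 4 mitochondrial members rose and 4 fell, against 45.6% of all genes called, 23.6% higher and 22.0% lower. The median was then 0.33 for cytosolic and 0.10 for mitochondrial members. Sars stood at 1.51, Kars at 1.14, Farsa at 1.04, Wars at 1.02, Mars at 1.00 and Vars at 1.00, all past the threshold. Dars at -0.28 (adjusted p = 0.0764), Rars at -0.27 (adjusted p = 0.095), Nars at -0.22 (adjusted p = 0.166), Qars at 0.30 (adjusted p = 0.196) and Hars at 0.40 (adjusted p = 0.0585) did not pass, and Aars turned to -0.22 (adjusted p = 0.429). Among mitochondrial members, Sars2 stood at 2.14, Mars2 at 1.71, Pars2 at 1.69, Yars2 at -1.13, Nars2 at -1.28 and Rars2 at -0.83, all past the threshold, and Ears2 (glutamate) came past it at -2.51 (adjusted p = 0.00108). Farsb (0.33, adjusted p = 0.0472) and Hars2 (histidine; 0.78, adjusted p = 0.02) came past it too, as higher. The part of GC content and of feeder RNA in the differences was not tested.

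**Figure D3:**
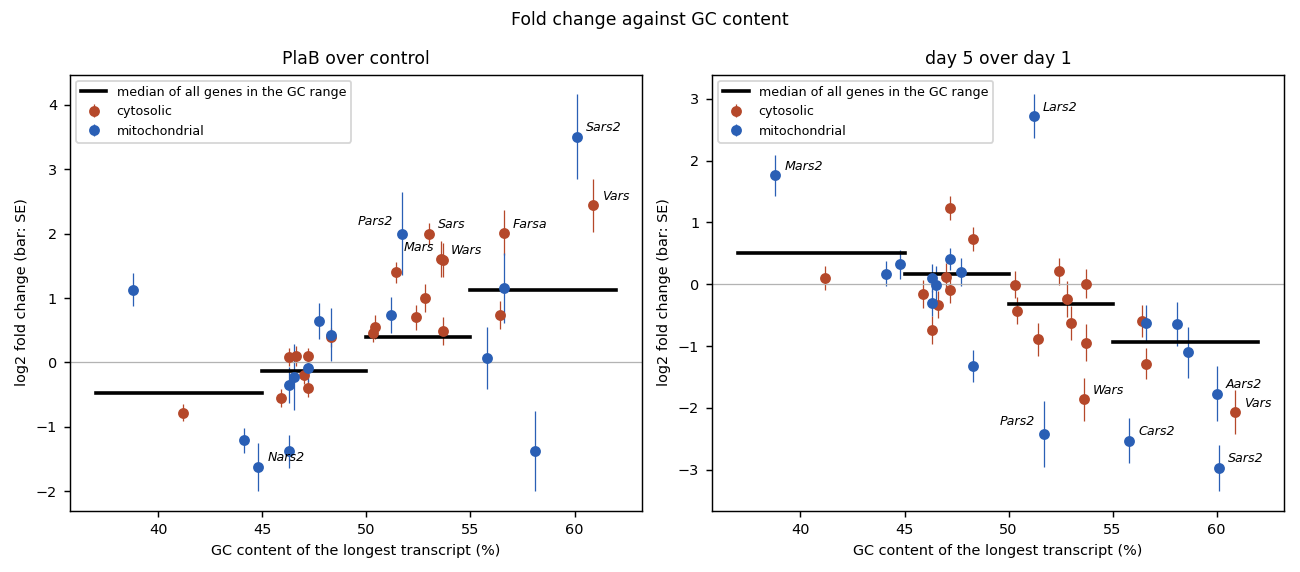
Log2 fold change with its standard error against the GC content of the longest transcript, for PlaB over control (left) and day 5 over day 1 (right), with members as points and the median of all genes in each GC range as black bars. Members follow GC content in the direction of the bars, upward after PlaB (Spearman 0.67) and downward over the blastoid days (Spearman -0.65), and Mars2 lies above the bar of its range in both panels.

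The calls that held under all alternatives tried were Farsa, Kars, Mars, Sars and Wars among the 15 cytosolic calls, and Mars2, Nars2, Rars2, Sars2 and Yars2 among the 7 mitochondrial calls. Among the 13 cytosolic genes with a promoter found, those holding TGATGNAAN rose in 4 of 5 cases (median 0.45). Those whose promoters lack it rose in 5 of 8 cases, with 1 lower (median 1.05). Of all genes, 25.9% rose and 25.8% fell. The promoters printed above belong to genes with log2 fold changes of 1.00 (Yars), 0.74 (Aars), 0.45 (Gars) and 0.39 (Iars). With the GC trend removed, Yars stood at 0.53, Aars at -0.22, Gars at 0.33 and Iars at 0.48. Aars then did not pass, and Yars and Gars did not pass when the replicate block was added. Iars lost its call in DESeq2 (adjusted p = 0.0653), without PlaB library 2 (adjusted p = 0.297), without control library 1 (adjusted p = 0.0544) and without control library 2 (adjusted p = 0.2), and Aars without control library 1 (adjusted p = 0.0968).

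Other genes of the amino acid response were mostly higher after PlaB. Of 30 listed genes, 25 were tested, 15 rose and 4 fell, with a median log2 fold change of 0.86. Among all genes, 25.9% rose and 25.8% fell. Phgdh, the entry enzyme of serine synthesis, averaged 58.8 ± 7.38 CPM after PlaB and 8.78 ± 0.201 CPM in controls (SD, n = 2 each; log2 fold change 2.74 ± 0.26 SE, adjusted p = 5.71e-11). Eif4ebp1, an inhibitor of cap-dependent translation, rose by 2.39 ± 0.18 (adjusted p = 9.74e-11). Atf4 itself rose by 1.38 ± 0.15 (adjusted p = 1.38e-09) and Slc3a2, the heavy chain of amino acid exchangers, by 1.22 ± 0.17 (adjusted p = 2.36e-07). The 4 that fell, named here after their values were seen, were Trib3 (-3.01), Cebpg (-2.18), the secreted glycoprotein Stc2 (-1.51) and Slc7a11 (-1.18). With the GC trend removed, 8 of the 25 rose and 4 fell (median 0.43), against 23.6% of all genes higher and 22.0% lower.

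Of 10 scaffolds and relatives of the synthetases, 2 rose and 3 fell (median 0.00), against 25.9% of all genes higher and 25.8% lower. The complex scaffold Eef1e1 fell by 1.72 ± 0.13 on the log2 scale, to 190 ± 15.8 CPM after PlaB, against 624 ± 11.9 CPM in controls (SD, n = 2 each; adjusted p = 4.33e-13). Aimp1, another scaffold, fell by 0.50 ± 0.15 (adjusted p = 0.00509), and Prorsd1, a relative of bacterial proteins that edit mischarged proline transfer RNA, fell by 0.89 ± 0.16 (adjusted p = 1.43e-05). Dtd1, which removes D-amino acids from transfer RNA, rose by 1.25 ± 0.23 (adjusted p = 2.98e-05). Among 14 factors of mitochondrial charging and translation, 2 rose and 4 fell (median -0.27), against the same shares of all genes. Trnt1, which adds the CCA end to transfer RNA, fell by 2.13 ± 0.17 (adjusted p = 1.12e-12), the initiation factor Mtif2 by 2.15 ± 0.19 (adjusted p = 1.39e-11) and the release factor Mtrf1 by 1.56 ± 0.36 (adjusted p = 0.000416). The elongation factor Tsfm rose by 2.15 ± 0.22 (adjusted p = 1.86e-10).

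Day 1 blastoids were set against PlaB-treated 2D cells, since the labels list both as PlaB-treated for 6 h, with no order of treatment and culture given for blastoids. Culture, the timing of PlaB, feeder cells and count table all change with the group and cannot be told apart from it. On day 1, 10 of 11 feeder markers tested were lower, 4 of 7 trophectoderm markers higher, and of 8 stem cell markers 3 were higher and 3 lower. Mitochondrial members were higher in 9 of 17 cases and lower in 1 (median log2 fold change 1.04), and cytosolic members higher in 4 of 20 and lower in 1 (median 0.37). Over 16304 genes, 38.9% passed the threshold, 21.9% as higher and 17.0% as lower, with a median of 0.14. The groups did not overlap for 12 of 20 cytosolic and 14 of 17 mitochondrial members, against 62.5% of all genes. The median over all genes moved to 0.43 when libraries were scaled by total counts. Then 12 mitochondrial members were higher and 1 lower, and 11 cytosolic members higher and 0 lower. Of all genes, 4810 were then higher and 1954 lower, against 3569 and 2768 otherwise.

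Rars2 had 95.8, 83.7 and 120.0 CPM on day 1, against 44.5 and 36.3 CPM in PlaB-treated cells. Tars2, the mitochondrial threonine enzyme, had 44.6, 36.4 and 32.6 CPM on day 1, against 8.21 and 13 CPM in PlaB-treated cells. Farsa had 68.9, 93.1 and 57.8 CPM on day 1, against 22.9 and 27.3 CPM in PlaB-treated cells. All 3 genes were above the PlaB libraries in every day 1 library. Rars2 was higher by 1.30 ± 0.23 (adjusted p = 0.00011), Tars2 by 1.83 ± 0.34 (adjusted p = 0.000164) and Farsa by 1.54 ± 0.30 (adjusted p = 0.000314) on the log2 scale in edgeR. With the GC trend removed, 3 cytosolic members were higher and 2 lower, and 8 mitochondrial members higher and 2 lower, against 38.0% of all genes called (18.7% higher and 19.3% lower), and Farsa stood at 0.91 (adjusted p = 0.00409). Dars (0.73, adjusted p = 0.013) then came past the threshold as higher, and Gars (-0.57, adjusted p = 0.0283) and Hars2 (-0.64, adjusted p = 0.0431) as lower. Mars2 went the other way, with 15.1, 8.93 and 12.2 CPM on day 1, against 34.1 and 39.9 CPM in PlaB-treated cells (log2 fold change -1.60 ± 0.34, adjusted p = 0.000707).

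This comparison shares the PlaB libraries with that of PlaB against control, which by itself favours opposite signs, so values are only set side by side. Rars2 stood at 1.30 in day 1 over PlaB and -1.21 in PlaB over control, Yars2 at 1.10 and -1.38, Nars2 at 1.31 and -1.62, and Mars2 at -1.60 and 1.13. Of the other members called in both comparisons, Rars (0.73 and -0.55) and Iars (-0.68 and 0.39) also had opposite signs. Farsa (1.54 and 2.01), Vars (1.39 and 2.44) and Qars (0.66 and 0.70) were higher in both. Of the 15 members called here, 1 cytosolic (Farsa) and 6 mitochondrial (Cars2, Mars2, Nars2, Rars2, Tars2 and Yars2) kept their calls under all alternatives. Without PlaB library 2, 8 members were higher and 1 lower in all, against 13 and 2 with it.

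In the related lists, 9 of 14 factors of mitochondrial charging and translation were higher on day 1 and 0 lower (median 1.36). They were led by Mtif2 (1.63 ± 0.24, adjusted p = 7.78e-06), Trnt1 (1.48 ± 0.24, adjusted p = 4.14e-05), Qrsl1 (1.60 ± 0.28, adjusted p = 7.06e-05) and the elongation factor Tufm (1.72 ± 0.30, adjusted p = 7.14e-05). Of 10 scaffolds and relatives, Aimp2 (1.80 ± 0.53, adjusted p = 0.0108) and Dtd2 (0.78 ± 0.31, adjusted p = 0.0463) were higher and Sepsecs, which makes selenocysteine on its transfer RNA, was lower (-0.62 ± 0.25, adjusted p = 0.0475). Of 28 amino acid response genes tested, 4 were higher and 8 lower (median 0.00). Beside each of these lists, 21.9% of all genes were higher and 17.0% lower. With the GC trend removed, 3 of the 28 response genes were higher and 12 lower (median -0.55), against 18.7% of all genes higher and 19.3% lower. Nupr1 (-2.28 ± 0.32, adjusted p = 5.8e-06) and Vldlr (-3.22 ± 0.45, adjusted p = 7.19e-06) were lower, and Cebpg (2.03 ± 0.35, adjusted p = 6.94e-05) and Trib3 (3.54 ± 0.72, adjusted p = 0.000448) higher.

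Over the blastoid days, 23 of the 37 members differed among days, 12 of 20 cytosolic and 11 of 17 mitochondrial, in a test with no direction that 68.0% of 15121 genes passed. The mean level was highest on day 1 or 2 for 16 cytosolic and 11 mitochondrial members. It was lowest on day 3 for 10 cytosolic and 5 mitochondrial members and on day 5 for 6 of each class. The days of highest and lowest mean were not counted over all genes, so these counts only describe the members. Without library 3 of day 3, 16 cytosolic and 10 mitochondrial members differed among days, the lowest cytosolic mean fell on day 3 for 7 members and on day 5 for 9, and the lowest mitochondrial mean on each of those days for 5. Of all genes, 10767 differed among days without that library, against 10286 with it. Over the days, Sars2 spanned 9.80-fold between its highest and lowest mean, Vars 6.37-fold, Cars2 6.25-fold and Lars2 6.21-fold. Wars2 (tryptophan) spanned 1.22-fold and Gars 1.31-fold. The GC content is 60.1% for Sars2, 60.9% for Vars, 55.8% for Cars2 and 51.2% for Lars2. The difference between GC-rich and GC-poor genes was 0.49 to 1.09 on day 1 and -1.05 to -0.39 on day 3. The part of GC content in these profiles was not tested.

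**Figure D4:**
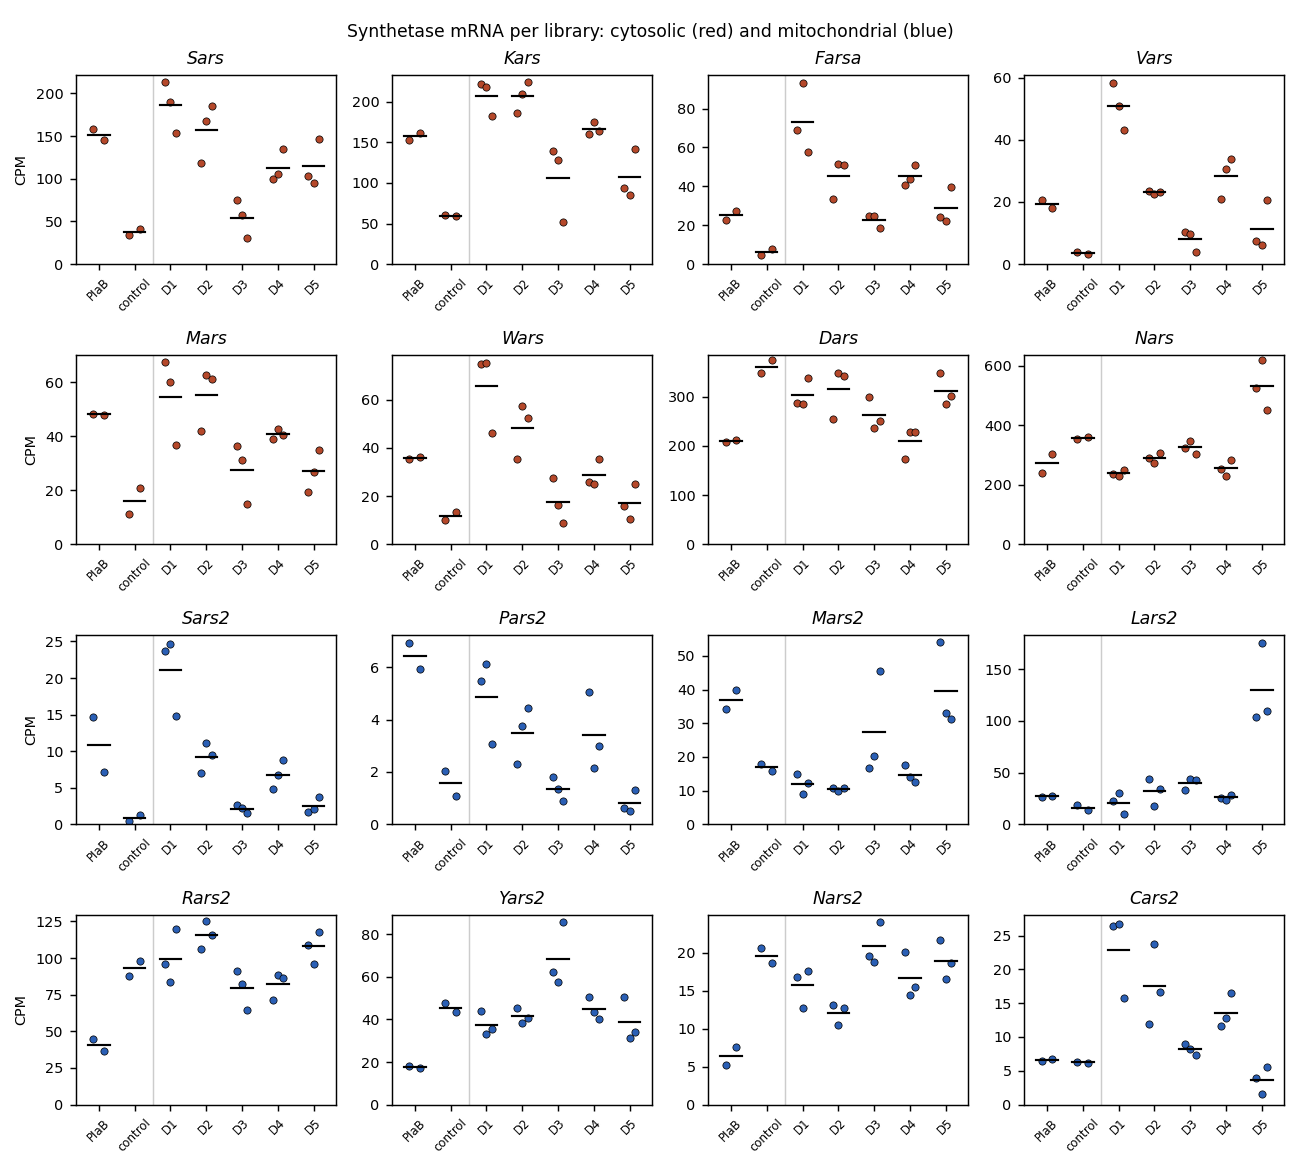
CPM in every library (points) and group means (bars) for 8 cytosolic members in red and 8 mitochondrial members in blue, with PlaB and control 2D cells left of the grey line and blastoid days 1 to 5 (D1 to D5) right of it. Sars2 reaches 14.8 to 24.7 CPM on day 1, while Lars2 lies at 104 to 175 CPM on day 5 and at 10.1 to 44.3 CPM on every earlier day.

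Day 5 was set against day 1 to compare the ends of blastoid culture. Of the 20 cytosolic members, 2 rose and 6 fell (median log2 fold change -0.28), and of the 17 mitochondrial members, 2 rose and 6 fell (median -0.31). Of all 15121 genes tested, 51.0% passed, 25.5% as higher and 25.5% as lower, with a median of -0.02. The days did not overlap for 11 of 20 cytosolic and 11 of 17 mitochondrial members, against 58.2% of all genes (28.0% higher and 30.2% lower). Scaled by total counts, all genes shifted to a median of -0.35, and 3 members rose and 20 fell. Of all genes, 2623 then rose and 5145 fell, against 3863 and 3855 otherwise. Within the multi-synthetase complex 1 of 8 rose and 2 fell, and outside it 1 of 12 rose and 4 fell.

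Lars2, the mitochondrial leucine enzyme, had 104, 175 and 110 CPM on day 5, against 22.6, 30.1 and 10.1 CPM on day 1. Mars2 had 54, 33.2 and 31.3 CPM on day 5, against 15.1, 8.93 and 12.2 CPM on day 1. Nars, the cytosolic asparagine enzyme, had 526, 618 and 451 CPM on day 5, against 237, 228 and 250 CPM on day 1. For all 3 genes each day 5 library exceeded each day 1 library. Lars2 rose 6.59-fold (2.72 ± 0.35 on the log2 scale, adjusted p = 3.8e-06), Mars2 3.38-fold (1.76 ± 0.33, adjusted p = 0.000191) and Nars 2.34-fold (1.23 ± 0.19, adjusted p = 3.4e-05) in edgeR. Iars (isoleucine) had 220, 187 and 228 CPM on day 5, against 128, 127 and 144 CPM on day 1, without overlap, and rose by 0.73 ± 0.19 (adjusted p = 0.00317). Its call ended with scaling by total counts (0.40, adjusted p = 0.0707) and without the filter on low counts (adjusted p = 0.142).

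The mitochondrial enzymes for serine, cysteine and proline were lower on day 5. Sars2 had 1.66, 2.09 and 3.79 CPM on day 5, against 23.7, 24.7 and 14.8 CPM on day 1. Cars2, the mitochondrial cysteine enzyme, had 3.94, 1.57 and 5.49 CPM on day 5, against 26.4, 26.8 and 15.7 CPM on day 1. Pars2 had 0.623, 0.523 and 1.33 CPM on day 5, against 5.45, 6.11 and 3.05 CPM on day 1, from 12 and 91 counts. No day 5 library reached a day 1 value in any of these. Sars2 fell by 2.97 ± 0.37 (adjusted p = 2.36e-06), Cars2 by 2.53 ± 0.36 (adjusted p = 1.01e-05) and Pars2 by 2.42 ± 0.53 (adjusted p = 0.000825) on the log2 scale. Tars2 (-1.32 ± 0.26, adjusted p = 0.000343), Aars2 (-1.77 ± 0.45, adjusted p = 0.00297) and Vars2 (-1.10 ± 0.41, adjusted p = 0.0307) fell too. Vars2 lost its call without day 1 library 1 or 2 or day 5 library 1 or 2 (adjusted p 0.068 to 0.103). Cars2 overlaps Naxd on the opposite strand, so reads in that overlap cannot be assigned.

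Among cytosolic members, Vars had 7.47, 6.27 and 20.5 CPM on day 5, against 58.3, 51.0 and 43.1 CPM on day 1. Wars had 15.8, 10.5 and 25.2 CPM on day 5, against 74.9, 75.4 and 46.3 CPM on day 1. Farsa had 24.1, 22.0 and 39.8 CPM on day 5, against 68.9, 93.1 and 57.8 CPM on day 1. The days did not overlap, and day 5 library 3 was the highest of its day for all 3 genes. Vars fell by 2.07 ± 0.36 (adjusted p = 8.75e-05), and by 2.80 without that library. Wars fell by 1.86 ± 0.35 (adjusted p = 0.000188) and Farsa by 1.29 ± 0.25 (adjusted p = 0.000318).

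Farsb had 141, 106 and 183 CPM on day 5, against 255, 246 and 249 CPM on day 1. Kars had 93.8, 85.5 and 142 CPM on day 5, against 222, 218 and 182 CPM on day 1. Both stood below day 1 in every library. Farsb fell by 0.74 ± 0.22 (adjusted p = 0.0088) and Kars by 0.89 ± 0.27 (adjusted p = 0.00939). Neither passed without day 5 library 2 (adjusted p = 0.0644 for Farsb and 0.054 for Kars). Mars fell by 0.95 ± 0.30 (adjusted p = 0.0115), and did not pass without day 5 library 1 (adjusted p = 0.0721).

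Eprs and Gars gave values that overlapped between the days. Eprs had 378, 393 and 468 CPM on day 5, against 505, 445 and 438 CPM on day 1 (log2 fold change -0.10 ± 0.20, adjusted p = 0.702). Gars had 141, 129 and 211 CPM on day 5, against 186, 179 and 142 CPM on day 1 (-0.01 ± 0.22, adjusted p = 0.969). The 12 cytosolic members without a call ran from -0.63 (Sars) to 0.21 (Qars), and the 9 mitochondrial ones from -0.64 (Ears2) to 0.41 (Iars2, isoleucine).

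**Figure D5:**
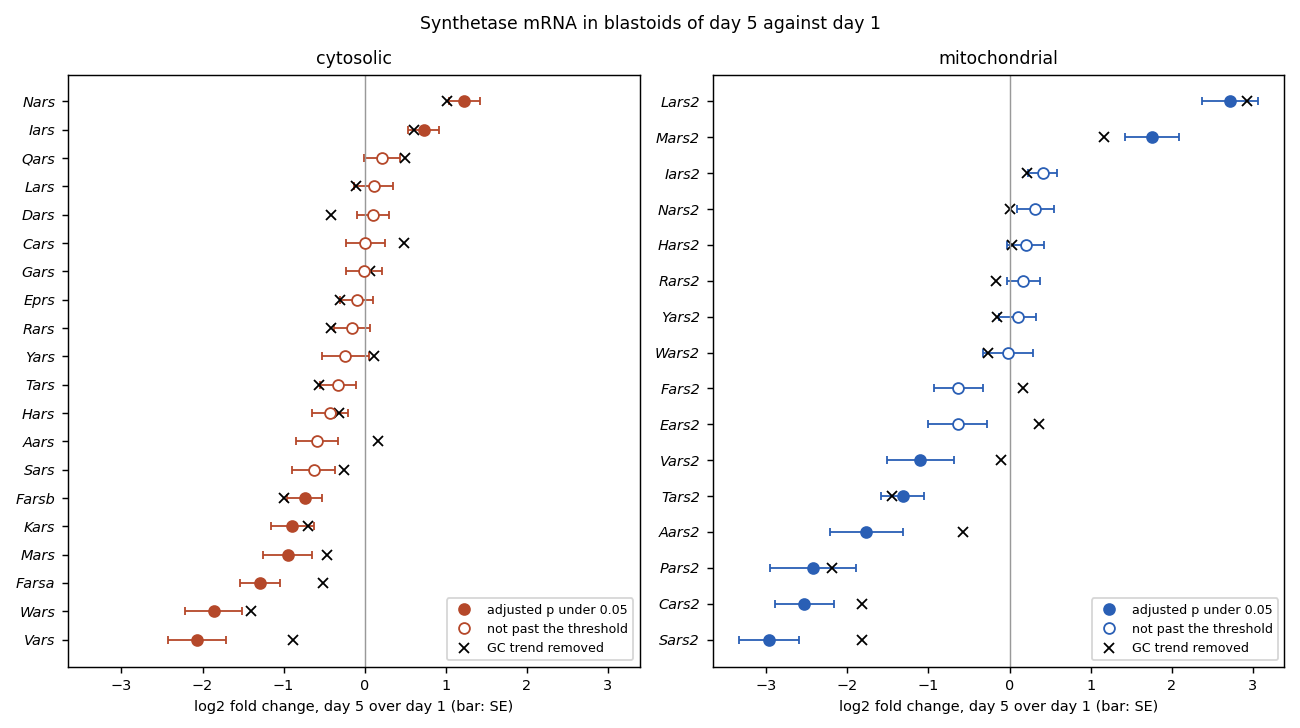
Log2 fold changes of blastoid day 5 over day 1 with standard errors, in the same layout as for PlaB, with crosses after removal of the trend on GC content. The points reach from -2.97 (Sars2) to 2.72 (Lars2), and the crosses of Vars2 and Aars2 lie nearer to 0 than their points.

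Here too GC content moved with the result, in the opposite direction. The difference between GC-rich and GC-poor genes was -0.61, -0.38 and 0.17 on day 5, against 1.00, 1.09 and 0.49 on day 1. Fold change and GC content had a Spearman correlation of -0.65 over the 37 members and of -0.35 over 15016 genes. With the trend removed, 4 cytosolic members rose and 6 fell, and 2 mitochondrial members rose and 5 fell, against 49.4% of all genes called, 25.0% higher and 24.4% lower. Lars2 stood at 2.93, Mars2 at 1.16, Nars at 1.02, Pars2 at -2.19, Sars2 at -1.82, Cars2 at -1.82, Tars2 at -1.45, Wars at -1.40, Vars at -0.88 and Farsa at -0.51, all past the threshold. Aars2 at -0.58 (adjusted p = 0.325), Vars2 at -0.11 (adjusted p = 0.848) and Mars at -0.47 (adjusted p = 0.102) did not pass, while Cars (0.48, adjusted p = 0.0429), Qars (0.50, adjusted p = 0.0233) and Tars (-0.56, adjusted p = 0.0374) came past the threshold. The calls of Farsa, Nars, Vars and Wars among cytosolic members, and of Cars2, Lars2, Mars2, Pars2, Sars2 and Tars2 among mitochondrial members, held under all alternatives tried. Of the trophectoderm markers 6 of 7 tested rose on day 5, and of the feeder markers 9 of 11 fell. Of the primitive endoderm markers 3 of 4 fell (median -1.94), and of the 8 stem cell markers 2 rose and 2 fell (median 0.20). The part of GC content and of these markers in the differences was not tested.

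Of 14 factors of mitochondrial charging and translation, 0 rose and 6 fell on day 5 (median -0.61), led by the elongation factor Tufm, at 32.0 ± 10.4 CPM on day 5, against 127 ± 35.3 CPM on day 1 (SD, n = 3 each; log2 fold change -1.92 ± 0.26, adjusted p = 7.03e-06). Tsfm, another elongation factor, fell by 1.82 ± 0.27 (adjusted p = 1.48e-05), Qrsl1 by 1.42 ± 0.22 (adjusted p = 3.28e-05) and the initiator formyltransferase Mtfmt by 1.23 ± 0.26 (adjusted p = 0.000489). Gfm1 (-0.49 ± 0.22, adjusted p = 0.0637) and Gfm2 (-0.58 ± 0.25, adjusted p = 0.056), named here after their values were seen, did not pass. Of 10 scaffolds and relatives, 0 rose and 3 fell, Aimp2 (-2.37 ± 0.47, adjusted p = 0.000375), Dtd2 (-1.32 ± 0.28, adjusted p = 0.000537) and Pstk, the kinase of the selenocysteine pathway (-0.65 ± 0.27, adjusted p = 0.0495). Of 27 amino acid response genes tested, 7 rose and 8 fell (median -0.30). Beside each of these lists, 25.5% of all genes rose and 25.5% fell. With the GC trend removed, 11 of the 27 response genes rose and 6 fell (median 0.19), against 25.0% of all genes higher and 24.4% lower. Atf3 rose by 4.45 ± 0.33 (adjusted p = 1.5e-08) and Vldlr by 3.32 ± 0.46 (adjusted p = 7.12e-06), whereas Eif4ebp1 fell by 2.70 ± 0.32 (adjusted p = 1.25e-06) and the cystine transporter Slc7a11 by 4.29 ± 0.67 (adjusted p = 5.1e-05).

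Of the steps between neighbouring days, day 2 against day 1 had the fewest called members. Sars2 alone passed, lower on day 2 at 6.97, 11.1 and 9.48 CPM, against 23.7, 24.7 and 14.8 CPM on day 1 (log2 fold change -1.17 ± 0.32, adjusted p = 0.029), with 6.96% of all genes called (5.27% lower). Sars2 did not overlap between these days, as was so for 3 of 17 mitochondrial and 6 of 20 cytosolic members, against 31.6% of all genes. With the GC trend removed Sars2 stood at -0.23 (adjusted p = 0.724) and 0 members passed in edgeR (3 at an unadjusted p under 0.05), against 3.96% of all genes (2.60% lower). The Sars2 call also ended without any 1 of the 6 libraries of days 1 and 2 except day 1 library 3. Vars (-1.12 ± 0.34, adjusted p = 0.0507) and Farsa (-0.67 ± 0.25, adjusted p = 0.109) came next. Of 7 trophectoderm markers 5 were lower on day 2 (median -1.46), while 0 of 11 feeder, 0 of 8 stem cell and 0 of 4 primitive endoderm markers passed.

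On day 3 against day 2, 9 cytosolic members fell and 0 rose, and 4 mitochondrial members fell and 3 rose, with 25.6% of all genes called, 12.0% as higher and 13.5% as lower. Sars had 74.9, 57.5 and 31.1 CPM on day 3, against 119, 168 and 185 CPM on day 2. Tars2 had 9.90, 10.2 and 9.55 CPM on day 3, against 20.1, 29.8 and 35.4 CPM on day 2. Sars2 had 2.64, 2.25 and 1.55 CPM on day 3, against 6.97, 11.1 and 9.48 CPM on day 2. The days did not overlap for these genes, nor for 9 of 20 cytosolic and 10 of 17 mitochondrial members in all, against 41.7% of all genes (22.2% lower). Sars fell by 1.50 ± 0.27 (adjusted p = 0.00113), Tars2 by 1.50 ± 0.27 (adjusted p = 0.00107) and Sars2 by 2.05 ± 0.37 (adjusted p = 0.00115). Library 3 of day 3, which stood apart, gave the lowest value of each. Without it, Sars fell by 1.23 (adjusted p = 0.00158), Tars2 by 1.49 (adjusted p = 0.00185) and Sars2 by 1.89 (adjusted p = 0.00314). In all, 1 member rose and 11 fell without it, against 3 (Mars2, Nars2 and Yars2) and 13 with it. Over all genes, 1069 rose and 1426 fell without it, against 1821 and 2045 with it. Without day 2 library 2 or day 2 library 3, 1 member rose as well. With the GC trend removed, 6 cytosolic members fell and 0 rose, and 4 mitochondrial members fell and 3 rose, against 20.7% of all genes called (10.7% higher and 10.1% lower). Aars, Farsa, Mars, Qars and Cars2 then lost their calls, while others came past the threshold. On day 3, 2 of 8 stem cell markers and 1 of 11 feeder markers were higher, and 2 of 7 trophectoderm markers were higher and 2 lower.

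On day 4 against day 3, 4 cytosolic members rose and 0 fell, and 4 mitochondrial members rose and 2 fell, with 27.9% of all genes called, 15.6% as higher and 12.3% as lower. Vars had 21.1, 30.5 and 33.9 CPM on day 4, against 10.4, 9.76 and 3.77 CPM on day 3, and rose by 1.80 ± 0.36 (adjusted p = 0.00125). Sars2 had 4.77, 6.71 and 8.84 CPM on day 4, against 2.64, 2.25 and 1.55 CPM on day 3, and rose by 1.61 ± 0.37 (adjusted p = 0.00358). Sars had 100, 105 and 135 CPM on day 4, against 74.9, 57.5 and 31.1 CPM on day 3, and rose by 1.04 ± 0.27 (adjusted p = 0.0074). None of these overlapped between the days, as was so for 9 of 20 cytosolic and 8 of 17 mitochondrial members, against 41.9% of all genes, and library 3 of day 3 was the lowest for each. Without it Vars rose by 1.50 (adjusted p = 0.00288), Sars2 by 1.46 (adjusted p = 0.0113) and Sars by 0.78 (adjusted p = 0.0186), and 5 members rose and 1, a cytosolic one, fell in all. Over all genes, 2045 rose and 1417 fell without that library, against 2361 and 1863 with it. Without day 4 library 3, 4 members rose. With the GC trend removed, 2 members rose and 1 fell, against 18.4% of all genes called (9.38% higher and 9.05% lower), and Vars at 0.74 (adjusted p = 0.0748), Sars2 at 0.59 (adjusted p = 0.217) and Sars at 0.61 (adjusted p = 0.0501) did not pass. Of 11 feeder markers 8 were lower on day 4 (median -2.07), of 7 trophectoderm markers 5 were higher (median 3.22), and of 8 stem cell markers 4 were lower (median -0.61).

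On day 5 against day 4, 2 cytosolic members rose and 1 fell, and 2 mitochondrial members rose and 4 fell, with 28.6% of all genes called, 14.1% as higher and 14.5% as lower. Lars2 had 104, 175 and 110 CPM on day 5, against 25.4, 24.0 and 28.8 CPM on day 4. Nars had 526, 618 and 451 CPM on day 5, against 254, 231 and 284 CPM on day 4. Cars2 had 3.94, 1.57 and 5.49 CPM on day 5, against 11.6, 12.8 and 16.5 CPM on day 4. The days did not overlap for any of them, as was so for 8 of 20 cytosolic and 10 of 17 mitochondrial members, against 44.5% of all genes. Lars2 rose by 2.35 ± 0.34 (adjusted p = 7.43e-05) and Nars by 1.09 ± 0.19 (adjusted p = 0.000402), and Cars2 fell by 1.82 ± 0.36 (adjusted p = 0.000941). With the GC trend removed, 3 cytosolic members rose and 0 fell, and 2 mitochondrial members rose and 2 fell, against 27.7% of all genes called (14.8% higher and 12.8% lower). Without day 5 library 1, 1 member fell in all, against 5 with it, and 3 fell without day 5 library 2 or without day 4 library 3. On day 5, 3 of 7 trophectoderm markers were higher than on day 4, and of 8 stem cell markers 2 were higher and 2 lower. The part of the markers in the steps between days was not tested.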

How the data were processed

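Poly(A) RNA was amplified by Smart-seq2, per the labels' protocols. The authors deposited raw counts per gene symbol in a 2D table and a blastoid table; the submitters' processing notes name STAR 2.7.10b, HTSeq 0.13.5 and mm10, with strand setting and annotation release not given in the sources used here. A gene's count can therefore hold reads of an overlapping gene. A gene on the opposite strand overlaps 9 of 20 cytosolic and 9 of 17 mitochondrial members. Ears2, with 744 counts over all libraries, is overlapped in this way by Ubfd1, with 8923.

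From the deposited counts, edgeR 4.0.16 (R 4.3.3, limma 3.58.1) fitted quasi-likelihood models with TMM scaling, a filter on low counts (filterByExpr, minimum count 10, minimum total 15) and Benjamini-Hochberg adjustment over all genes tested, at a threshold of 0.05. The 4 libraries of 2D culture made 1 fit, the 15 blastoid libraries another, and all 19 libraries a joint fit for day 1 against PlaB and for the CPM shown; CPM per kb uses the longest transcript, protein-coding where there is one. Variation between libraries of a group, as edgeR's common biological coefficient of variation, came to 0.127 for 2D culture and 0.258 for blastoids. Tested on simulated data with known changes, the PlaB comparison recovered 74% of changes of 1 and 98% of changes of 2 on the log2 scale (11183 genes). Day 5 against day 1 recovered 38% and 97% (15121 genes), and day 1 against PlaB 25% and 93% (16304 genes). The simulation gave every gene the common variation, held no GC trend and placed no change in genes of the lowest mean levels. Recovery for such low genes, or for genes of wider spread, was therefore not measured. For the GC alternative, each library's lowess trend (span 0.3) of log2 CPM on transcript GC content was removed through offsets, which also removes any change that follows GC content.

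The alternatives were RLE and total-count scaling, no filter, DESeq2 1.42.0, the replicate number as a block, the GC trend removed with and without that block, and leaving out each library. Per-library values were given for the 6 cytosolic and 4 mitochondrial members with the smallest adjusted p in PlaB against control and in day 5 against day 1, for Eprs, Gars, Kars, Pars2 and Sars2, and for 3 members in the other comparisons; of each other list up to 4 genes were named. Farsb and Mars2 after PlaB, Mars2 on day 1 and Ddit3, Gfm1 and Gfm2 were added after their values were seen. The values of 1 member that enters the counts are not reported here, nor drawn in the plots of fold changes by gene. The members and lists were chosen with earlier results of these data known.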

Additional observations from a re-analysis of the deposited data

How the results depend on the processing

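Counts of called members that moved by more than 1.5 times are given here as higher or lower members, with the cause not tested. Where the same count over all genes is not beside them, they only describe the members. With the GC trend removed together with the replicate block, 10 members were higher after PlaB (16 otherwise), 7 lower on day 3 against day 2 (13), 1 higher and 1 lower on day 4 against day 3 (8 and 2), 2 lower on day 5 against day 4 (5) and 0 lower on day 2 against day 1 (1). With the GC trend alone removed, 2 were higher and 1 lower on day 4 against day 3, 2 lower on day 5 against day 4, 0 lower on day 2 against day 1 and 4 lower on day 1 against PlaB (2). Scaled by total counts, 20 members were lower on day 5 against day 1 (12), 3 on day 2 against day 1, 9 on day 5 against day 4 and 0 on day 4 against day 3, and 23 were higher and 1 lower on day 1 against PlaB (13 and 2). That scaling moved the median log2 fold change of all genes to -0.35 on day 5 against day 1, -0.17 on day 2 against day 1, 0.10 on day 4 against day 3, -0.23 on day 5 against day 4 and 0.43 on day 1 against PlaB. On day 5 against day 4 it gave 3 higher beside the 9 lower members (4 and 5 otherwise). On day 4 against day 3 it gave 11 higher beside the 0 lower. Of all genes, 5145 were then lower on day 5 against day 1 (3855 otherwise) and 3004 on day 5 against day 4 (2188). Day 2 against day 1 had 1373 genes lower (797), and day 4 against day 3 had 2879 higher and 1297 lower (2361 and 1863). Day 1 against PlaB had 4810 genes higher and 1954 lower (3569 and 2768). Without the filter on low counts, 2 members were lower on day 2 against day 1, 1 higher on day 3 against day 2, 1 lower on day 4 against day 3 and 1 lower on day 1 against PlaB. RLE scaling and DESeq2 each gave 2 lower on day 2 against day 1. DESeq2 gave 12 higher and 6 lower members after PlaB, with 2157 of all genes higher and 2062 lower. The exact motif TGATGCAAT was in 2 cytosolic promoters, against 5 with TGATGNAAN.

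Leaving out 1 library at a time gave 10 to 14 higher and 5 to 6 lower members after PlaB, 4 to 5 higher and 10 to 15 lower on day 5 against day 1, 0 to 2 lower on day 2 against day 1, 1 to 3 higher and 9 to 16 lower on day 3 against day 2, 4 to 10 higher and 0 to 2 lower on day 4 against day 3, 3 to 4 higher and 1 to 7 lower on day 5 against day 4, and 8 to 18 higher and 1 to 3 lower on day 1 against PlaB. Among days in general it gave 20 to 26 called members. Where a 2D group then held 1 library, it was assumed to vary like the other group. Among called values, Aars after PlaB turned its sign, to -0.22 with the GC trend removed, with or without the block (0.74 otherwise). Among values without a call, Eprs after PlaB ran from -0.02 to 0.20, and Gars on day 5 against day 1 ran from -0.25 to 0.11, with 0.07 when the GC trend was removed, with or without the block.

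Replicate numbers did not pair the libraries: same-numbered libraries had deviations correlated at -0.0179 in 2D, and at -0.262 to 0.179 over 30 blastoid pairs, of which 3 exceeded 0.1, and 2 of 15 libraries correlated best with their own number. The replicate block alone left 16 higher and 6 lower members after PlaB and 4 higher and 12 lower on day 5 against day 1, and moved day 4 against day 3 to 1 lower member. No block was fitted for day 1 against PlaB.

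Depth limits the low members: Aars2 and Vars2 had 11 and 3 counts in the PlaB libraries, against 10 and 15 in controls, and were not tested in that comparison.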
